A study of Caenorhabditis elegans with 2 samples.

Results

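Cohesin and cohesin regulator genes were examined in a chromatin immunoprecipitation sequencing (ChIP-seq) map of F33H1.4, a Caenorhabditis elegans protein that RefSeq describes as holding a C2H2-type domain. The 10 genes were chosen by name from what is known of cohesin, out of 19973 protein-coding genes of the nuclear chromosomes. They were the meiotic kleisins rec-8, coh-3 and coh-4, the kleisins scc-1 and coh-1, the further subunits smc-3, him-1 and scc-3, and the regulators pqn-85 and wapl-1. The annotation lists pqn-85 under its newer name scc-2 (WBGene00004166). Each gene was given every peak summit between 1000 bp upstream of its annotated 5′ end and its 3′ end. The series held 1 group, with 2 biological replicates, each of whole worms at the young adult stage (62.5 hours), grown from starved L1 larvae. All animals were of strain RW12303, genotype st12303[F33H1.4::TY1::EGFP::3xFLAG] II, in which CRISPR had inserted the tag at the F33H1.4 locus, and an antibody to green fluorescent protein was used. The labels name no second condition, and whole animals mix germline and somatic cells, so the tissue behind a peak cannot be told from these lists.

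Cohesin is a ring of a pair of SMC proteins closed by a kleisin, to which an SCC3 protein binds, and the ring holds sister chromatids together. SMC-3 and HIM-1 are the SMC proteins of the worm, and the kleisin sets when and where a ring is used. SCC-1 is the kleisin of mitosis and COH-1 acts in somatic cells. REC-8 and the closely related pair COH-3 and COH-4 act in meiosis, where they build the chromosome axis and hold homologs and sisters until the divisions. PQN-85 belongs to the loader of cohesin, and WAPL-1 takes cohesin off chromosomes. In the adult hermaphrodite the germline is the main tissue with dividing and meiotic nuclei.

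The sequences under the strongest summits are shown first, because the words they hold vary with the strength of peaks across the map. Each line gives bases from 40 before to 80 after the summit of the strongest peak in the list made from both replicates, called the series list here, read 5′ to 3′ in the direction of the named gene (RefSeq genome, build WBcel235, the same as ce11). Capitals mark 4 words of 6 bases that were frequent at the strongest summits of the whole map, on either strand. They are GAGACC (word 1), AGGCGC (word 2), ACCGTA (word 3) and CCTTTA (word 4). Read from the other strand, word 1 appears as GGTCTC, word 2 as GCGCCT and word 3 as TACGGT.
rec-8, chrIV:13353338-13353458, minus strand: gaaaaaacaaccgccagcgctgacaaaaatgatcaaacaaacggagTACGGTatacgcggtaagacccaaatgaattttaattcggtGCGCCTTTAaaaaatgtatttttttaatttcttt
coh-3, chrV:14457238-14457358, plus strand: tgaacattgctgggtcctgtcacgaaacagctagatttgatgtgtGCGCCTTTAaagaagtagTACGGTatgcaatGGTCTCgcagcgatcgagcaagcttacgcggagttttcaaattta
coh-4, chrV:4175737-4175857, minus strand: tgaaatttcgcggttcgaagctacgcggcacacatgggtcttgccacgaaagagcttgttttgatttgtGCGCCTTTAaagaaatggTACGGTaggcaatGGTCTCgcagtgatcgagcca
scc-1, chrII:4698418-4698538, plus strand: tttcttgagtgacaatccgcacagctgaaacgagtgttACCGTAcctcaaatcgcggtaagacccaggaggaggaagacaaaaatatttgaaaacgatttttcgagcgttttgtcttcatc
smc-3, chrIII:11290032-11290152, plus strand: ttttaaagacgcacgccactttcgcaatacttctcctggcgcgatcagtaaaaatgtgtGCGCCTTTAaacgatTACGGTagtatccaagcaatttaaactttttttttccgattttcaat
wapl-1, chrIV:4445824-4445944, minus strand: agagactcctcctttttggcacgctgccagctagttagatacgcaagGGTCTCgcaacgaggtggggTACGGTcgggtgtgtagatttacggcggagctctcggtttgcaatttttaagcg
pqn-85, chrII:255276-255396, minus strand: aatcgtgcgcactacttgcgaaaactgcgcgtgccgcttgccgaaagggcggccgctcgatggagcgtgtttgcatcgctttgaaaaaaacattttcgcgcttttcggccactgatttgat
The coh-3 and coh-4 lines hold all 4 words in the same order. In these 2 lines and in those of rec-8 and smc-3, words 2 and 4 overlap in the run GCGCCTTTA. The line of pqn-85 holds none and is shown for contrast. The same stretch at scc-3, which is not shown, also holds none of the 4 in full.

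Of the 10 genes, 8 had a summit in the series list, against 14.8% of all protein-coding genes (2947 of 19973). In the conservative list, a list of 3165 peaks that the authors also made from both replicates, the count was also 8, against 14.4%. These were rec-8, coh-3, coh-4, scc-1, smc-3, scc-3, pqn-85 and wapl-1, while coh-1 and him-1 had none. The windows held 10 summits in all, since coh-3 and smc-3 had 2 each. Every one of the 10 lay upstream of the nearest transcript start of its gene, which at pqn-85 was that of a shorter transcript. The share of all series summits placed this way was not counted. Peaks were ranked within each list by signal, the authors' own value for a peak. The series list held 3250 peaks with a median signal of 163, and 7 of the 8 genes had a peak above that median. Signals of the strongest peak ran from 3351 at wapl-1 to 150.1 at scc-3. With 4 genes among the 100 strongest peaks, against 0.741% of all genes, the group split into wapl-1 and the meiotic kleisins at ranks 20 to 65, scc-1 and smc-3 at ranks 252 and 497, and pqn-85 and scc-3 at ranks 1366 and 1729. The genes were chosen by name with earlier results of this map known, so these shares are descriptions and no test was made on them. In the stronger 50% of the list 7 genes had a summit, against 9.35% of all genes. With 500 bp upstream the count was 8, against 12.8%, and in windows around any transcript start it was 8, also against 12.8%.

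**Figure D1:**
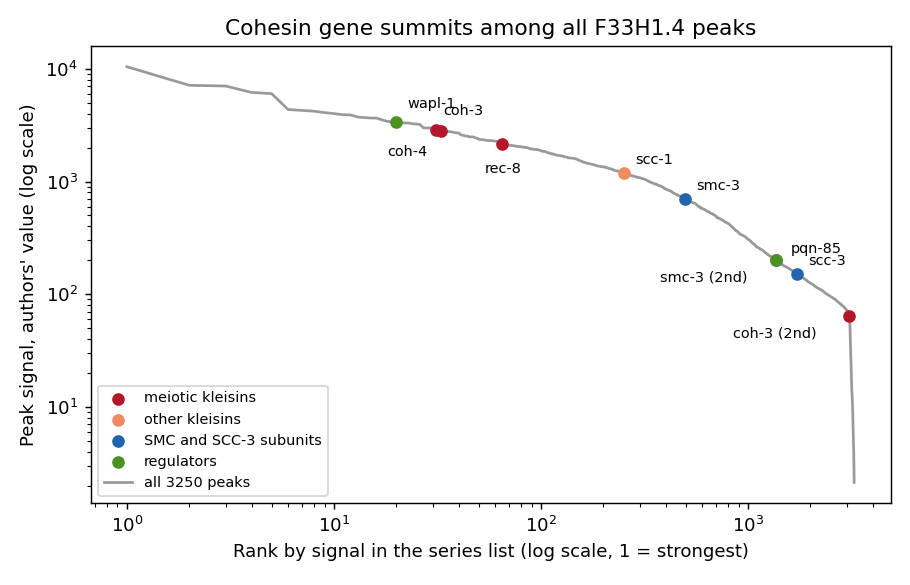
Peak signal against rank for the summits in the windows of the cohesin genes (coloured by role) and for all 3250 peaks of the series list (grey line), both axes logarithmic. The strongest peaks of wapl-1, coh-3, coh-4 and rec-8 lie between ranks 20 and 65, and the second summit of coh-3 lies at rank 3063.

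All 3 meiotic kleisin genes had a strong peak just upstream of the gene. At coh-3 (WBGene00000592, chromosome V, 14457422 to 14460141, plus strand) the peak spanned 14457065 to 14457482, with its summit 144 bp upstream of the 5′ end. Its signal was 2879 in the series list (rank 31), 1113 in the list of replicate 1 (rank 35 of 2219) and 1779 in that of replicate 2 (rank 31 of 2733). The coh-4 peak had nearly the same strength. It spanned 4175621 to 4176022 on chromosome V, upstream of a gene that runs from 4169912 to 4175640 on the minus strand (WBGene00021560), and its summit was 177 bp upstream. Signals at coh-4 were 2827 in the series list (rank 33), 1139.6 in replicate 1 (rank 33) and 1691 in replicate 2 (rank 36). Replicate 1 placed coh-4 above coh-3 and replicate 2 placed coh-3 above coh-4, so the replicates do not order these 2 genes.

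The rec-8 peak (WBGene00004333, chromosome IV, 13349122 to 13353193, minus strand) spanned 13353222 to 13353667, with the summit 225 bp upstream. Its signal was 2172 in the series list (rank 65), 871 in replicate 1 (rank 64) and 1316 in replicate 2 (rank 71). In both replicates rec-8 ranked below coh-3 and coh-4 and within the strongest 3% of the list, at 2.88% and 2.60%. A second, weak summit lay 863 bp upstream of coh-3, with a signal of 64.7 and rank 3063. It was in coding sequence of the neighbour bmk-1 and was absent from the thresholded lists of both replicates and from the conservative list.

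Among the other 2 kleisin genes, scc-1 had a peak and coh-1 had none. The scc-1 peak (WBGene00004737, chromosome II, 4698721 to 4700994, plus strand) spanned 4698274 to 4698631 with the summit 263 bp upstream. Its signal was 1193 in the series list (rank 252), 503 in replicate 1 (rank 218) and 687 in replicate 2 (rank 284). Relative to scc-1, the series signal was 2.41 times as high at coh-3, 2.37 times at coh-4 and 1.82 times at rec-8. The same ratios were 2.21, 2.26 and 1.73 in replicate 1 and 2.59, 2.46 and 1.92 in replicate 2. Each meiotic kleisin therefore stood above scc-1 in both replicates, by more than the replicates differed from each other in that ratio. Genes are not replicates and 3 against 2 were compared, so no test was made.

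Around coh-1 (WBGene00000591) the thresholded lists had no summit inside the window. It lies on the X chromosome, at 7465193 to 7475018 on the minus strand, where 2.05% of genes had a summit in their window in the series list, against 16.8% of genes on the autosomes. The unthresholded lists, which hold 33529 regions for replicate 1 and 30974 for replicate 2, did place a weak region at its start. All 10 genes had a region in their window in both of these lists, as did 47.4% of all protein-coding genes. Its summit was 113 bp upstream in replicate 1 (signal 30.1, rank 6003) and 119 bp upstream in replicate 2 (signal 23.6, rank 10227). A summit within 300 bp upstream in both unthresholded lists was found at 9.71% of all genes. The comparison of meiotic with other kleisins thus rests on scc-1 for its size, and coh-1 differs from the others in chromosome as well as in use.

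At the 3′ end of scc-1 the replicates differed. Replicate 1 alone had a thresholded summit on the last annotated base of the gene (signal 64.6, rank 1742). Its peak, 4700839 to 4701148, overlapped a weaker region in the unthresholded list of replicate 2 (signal 28.0, rank 6879), and a peak of the series list with a summit beyond the gene (signal 84.9, rank 2730).

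**Figure D2:**
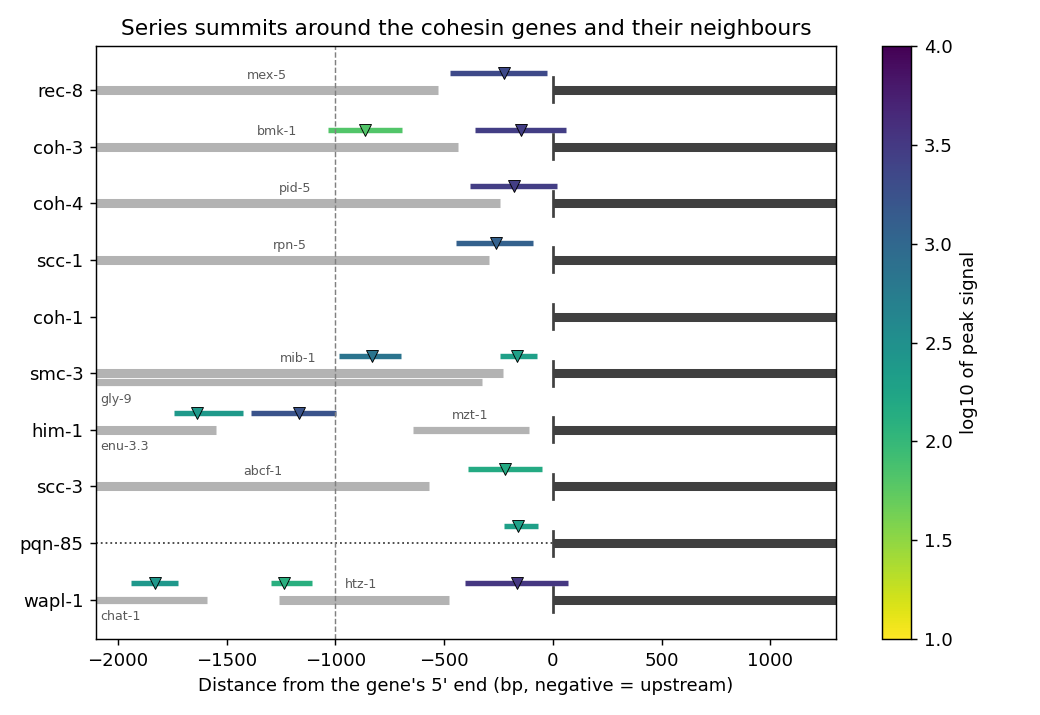
Position of series peaks (coloured bars, triangles at summits, colour giving the log10 of the signal) relative to the 5′ end of each cohesin gene (dark bars) and of the protein-coding genes that share a summit drawn (grey bars), in bp. The dashed line marks the limit of the window at 1000 bp, with both him-1 summits and 2 of wapl-1 beyond it; pqn-85 is drawn from the start of its shorter transcript, with a dotted line for the rest of the longer one.

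Of the subunits shared by all cohesin rings, smc-3 and scc-3 had a summit. The gene smc-3 (WBGene00004873, chromosome III, 11290904 to 11306247, plus strand) had 2. The stronger, at 11289920 to 11290205, lay 832 bp upstream of smc-3 in an intron of the neighbours mib-1 and gly-9, with a signal of 704 in the series list (rank 497), 263 in replicate 1 (rank 529) and 435 in replicate 2 (rank 492). The weaker, at 11290663 to 11290833, lay 164 bp upstream of smc-3 and had signals of 202, 95.9 and 107 in the same lists, ranks 1356, 1256 and 1458. At smc-3, then, the summit next to the gene was the lower of the pair in both replicates. The scc-3 peak (WBGene00004738, chromosome V, 12763945 to 12767933, plus strand) was the weakest of the strongest peaks of the 8 genes. It spanned 12763554 to 12763893, 221 bp upstream at its summit, with a signal of 150.1 in the series list (rank 1729), 62.4 in replicate 1 (rank 1791) and 95.4 in replicate 2 (rank 1599). Its place in the list was 80.7% from the top in replicate 1 and 58.5% in replicate 2, the widest gap between the replicates among the 8 genes.

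The SMC1 gene him-1 (WBGene00001860) had no summit by the rule, and a strong peak stood just outside its window. The gene runs from 4951571 to 4957667 on the minus strand of chromosome I, where 23.9% of genes had a summit in their window. A peak at 4958664 to 4959053 had its summit 1166 bp upstream, 1 gene away: mzt-1, which encodes a small protein of the gamma-tubulin complex, lies between it and him-1 on the same strand, with 107 bases between the 2 genes. That peak had a signal of 1709 in the series list (rank 120), 728 in replicate 1 (rank 102) and 1028 in replicate 2 (rank 128), which is above the peak of scc-1 in each list. Its summit was 524 bp upstream of mzt-1 and 384 bp upstream of enu-3.3, which is read in the opposite direction. A further peak, 1635 bp upstream of him-1, had a signal of 245 (rank 1177). Nearer to him-1, within the body of mzt-1, the unthresholded lists held a region whose summit lay 247 bp upstream of him-1 in replicate 1 (signal 25.2, rank 9700) and 264 bp upstream in replicate 2 (signal 54.3, rank 2632). With a window of 2000 bp, him-1 counted and the total was 9 of 10, against 17.3% of all genes with that window. The total was also 9 when any overlap of a peak with the window counted, against 15.8%.

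The regulators differed by rank. The wapl-1 peak (WBGene00019953, chromosome IV, 4442362 to 4445740, minus strand) was the strongest of all 10 genes, at 4445669 to 4446145 with the summit 164 bp upstream. Its signal was 3351 in the series list (rank 20), 1256 in replicate 1 (rank 25) and 2105 in replicate 2 (rank 18). At 477 bp it was also the widest, where the median peak of the series list had 340 bp. Farther out, beyond the window of wapl-1, a summit 1235 bp upstream lay inside htz-1 (signal 128, rank 1963) and one 1827 bp upstream lay inside chat-1 (signal 254, rank 1140). The latter summit also lay inside a snoRNA gene and an ncRNA gene on the strand opposite to chat-1. The loader gene pqn-85 (chromosome II, 240705 to 263663, minus strand) had a narrow peak of 158 bp at 255265 to 255422. Signals there were 200.4 in the series list (rank 1366), 93.9 in replicate 1 (rank 1278) and 104 in replicate 2 (rank 1502). This summit lay 8307 bp inside the annotated gene, in an intron of the transcript Y43H11AL.3a.2, and 160 bp upstream of the start of Y43H11AL.3a.1 at 255196. It is therefore an intronic or an upstream peak according to the transcript used.

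In each replicate's own thresholded list the same 8 genes had a summit, against 11.2% of all genes in replicate 1 and 13.6% in replicate 2. The 2 replicate peaks overlapped at all 8 genes, and such overlap was common, found for 1940 of the 2219 peaks of replicate 1. A summit in both lists was found for 10.4% of all genes. The signal in replicate 2 was 1.10 to 1.68 times that in replicate 1, with a median of 1.52, while all 1940 overlapping pairs had a median of 1.43 and quartiles of 1.18 and 1.66. The scale of the lists is not known to be the same, so this ratio is no measure of binding. Summits of the strongest peaks lay 0 to 27 bp apart between replicates, with a median of 4 bp, against a median of 11 bp over all pairs. The gap was 5 bp or less at rec-8, coh-3, coh-4, scc-1 and wapl-1, and 9, 12 and 27 bp at scc-3, pqn-85 and smc-3.

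**Figure D3:**
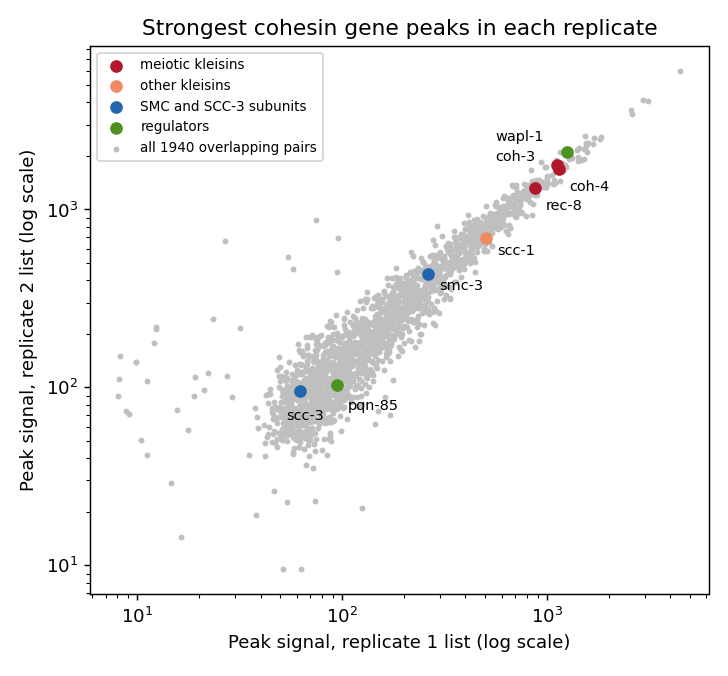
Signal of the strongest peak of each cohesin gene in the list of replicate 1 (x axis) and replicate 2 (y axis), with all 1940 overlapping pairs in grey, both axes logarithmic. The 8 genes lie within the cloud of pairs, from scc-3 at 62.4 and 95.4 to wapl-1 at 1256 and 2105.

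A divergent neighbour, read in the opposite direction, lay within 1000 bp of all 8 genes with a summit, as for 41.5% of all genes with a series summit. This measure does not ask where the summit lies. At 7 of the 8, all but pqn-85, a summit lay between the 5′ end of the cohesin gene and that of the divergent neighbour. The share of all genes with such a summit was not counted, so the 7 are a description only. The partners were mex-5, a maternal CCCH zinc finger protein (305 bp from the rec-8 summit), bmk-1, a mitotic kinesin (294 bp from that of coh-3), and pid-5, a factor of the piRNA pathway (65 bp from that of coh-4). They were also rpn-5, a proteasome subunit (31 bp from that of scc-1), abcf-1, an ABC family protein (349 bp from that of scc-3), and htz-1, the histone variant H2A.Z (312 bp from that of wapl-1). At smc-3 the partners were mib-1, a ubiquitin ligase, and gly-9, a glycosyltransferase, 64 and 160 bp from the weaker summit. The summit lay closer to the partner than to the cohesin gene at coh-4, scc-1 and smc-3. When a summit counted only for its nearest 5′ end, these 3 genes lost theirs and 5 of 10 remained (rec-8, coh-3, scc-3, pqn-85 and wapl-1), against 10.7% of all genes. A divergent neighbour within 1000 bp was present for 17.7% of all genes, and of such genes 34.5% had a summit in the window, against 10.5% of genes without one. A peak in such a space cannot be given to 1 gene of the pair.

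The words in capitals were commoner at strong peaks than at weak ones across the list, and their number varied among these genes. They were chosen after the data were seen, from the 325 strongest summits of the series list, which include those of wapl-1, coh-3, coh-4, rec-8 and scc-1. The 4 are the words with the largest excess in the 101 bases at these summits over windows centred 300 bp away, leaving out a word that shared 4 bases in a row with one already taken. Leaving the cohesin summits out of the choice gave the same 4 words, but they were so few of the 325 that this could hardly have differed. Within 100 bp of a summit, word 1 was present at 30.8% of all series summits and in 5.73% of promoters of all protein-coding genes, taken as windows of the same 201 bases from 250 to 50 bp upstream. For word 2 the shares were 22.4% and 3.58%, for word 3 21% and 6.10%, and for word 4 23% and 7.94%. In the strongest 10% of the list the shares of words 1 to 4 were 66.2%, 46.2%, 53.5% and 48.3%, and in the weakest 10% they were 17.2%, 8.31%, 7.69% and 8.31%.

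**Figure D4:**
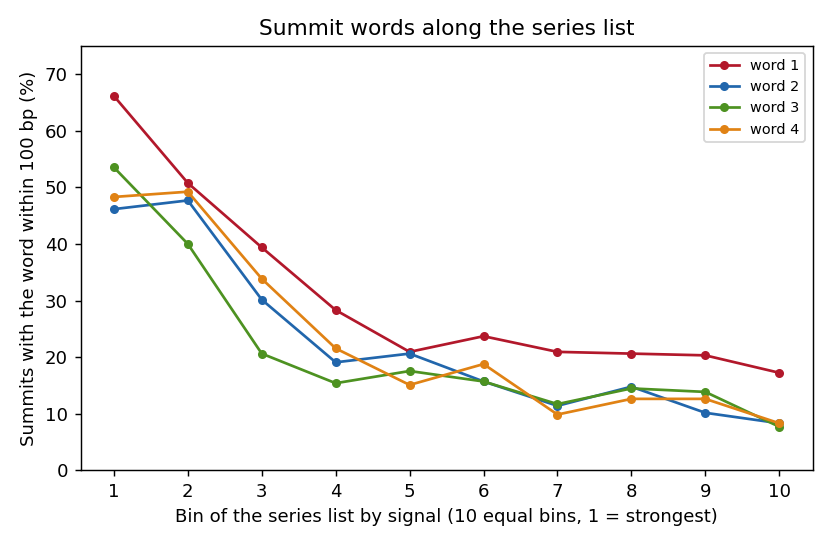
Share of series summits with each of the 4 words within 100 bp (y axis, percent) in 10 equal bins of the list ordered by signal (x axis, 325 summits each). All 4 lines are lower in the weakest bin than in the strongest, at 17.2% against 66.2% for word 1; the strongest bin was used to choose the words.

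At the strongest summits of coh-3 and coh-4 all 4 words were present, which was so at 3.69% of all series summits, 12.3% of the strongest 10% and 0.175% of promoters. Those of rec-8 and smc-3 held words 2, 3 and 4. Together these 4 genes had at least 3 words, as did 14.6% of all summits and 39.4% of the strongest 10%, which include coh-3, coh-4 and rec-8. At all 4 genes words 2 and 4 overlap in 1 run of bases, so words were counted here and not separate sites. Words 1 and 3 stood at the wapl-1 summit, the strongest of all, and words 3 and 4 at those of scc-1 and scc-3, with word 4 of scc-1 before the printed bases. At scc-3 they lay 76 bp or more from the summit, near the edge of the window. The summit of pqn-85, the weaker summit of smc-3 and the weaker summit of coh-3 held none. At least 2 words lay within 100 bp at 7 of the 8 genes, against 26.2% of all series summits, 70.2% of the strongest 10% and 2.87% of promoters. Within 50 bp, 4 genes had at least 2 (coh-3, coh-4, smc-3 and wapl-1), against 21.2% of all summits and 61.2% of the strongest 10%. The peak upstream of mzt-1 and him-1 held 2 of the 4. In the fixed promoter windows from 250 to 50 bp upstream, 4 words were found at coh-3 and coh-4, 3 at rec-8, 2 at wapl-1 and 1 at scc-3. None was found at scc-1, smc-3, pqn-85, coh-1 or him-1, and 19.4% of all promoters held at least 1. These windows miss the strongest summits of scc-1 (263 bp upstream), smc-3 (832 bp upstream) and pqn-85 (8307 bp inside the gene). For these genes a window without a word therefore does not describe the strongest summit.

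**Figure D5:**
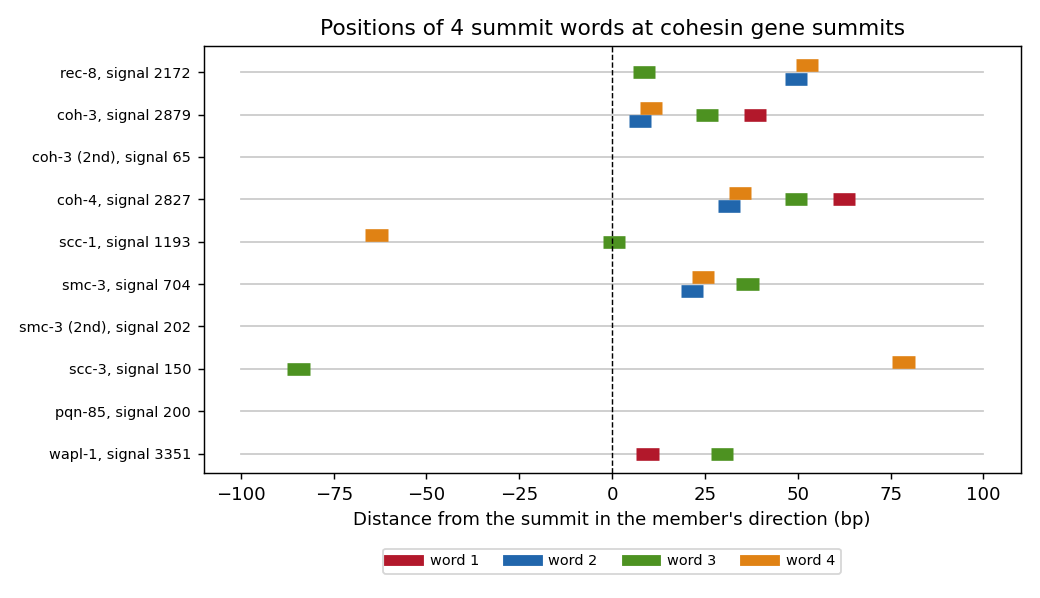
Positions of the 4 words (coloured boxes, either strand) within 100 bp of each series summit of the cohesin genes, in the direction of the gene, with the dashed line at the summit. The boxes of coh-3 and coh-4 have the same order and spacing and lie farther from the summit at coh-4, and the summits of pqn-85 and the second ones of coh-3 and smc-3 have no box.

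The coh-3 and coh-4 windows are related copies. Over the 201 bases around the summits, a local alignment covered 156 bases with 86.5% identity, and the longest identical run had 17 bases. No other pair among the strongest windows aligned over more than 48 bases. The coding sequences of the 2 genes were 90.3% identical over 1812 aligned bases, and those of the other kleisin pairs 69.9% to 74.9% over their aligned bases. As a share of the longer coding sequence, identical bases made up 89.6% for coh-3 and coh-4 and 53.9% to 60.9% for the other pairs. The first measure leaves gaps out, which raises it. No unrelated coding sequences were aligned, so the values of the other pairs have no baseline and do not show how related those genes are. Reads that match both copies cannot be placed in 1 of them, and in these windows no identical run is longer than 17 bases. How such reads were treated is not stated in the labels or notes, and their part in the 2 signals was not tested. The spacing was the same at both: word 3 began 15 bp after word 4, and word 1 began 13 bp after word 3. Of the 88 series summits with word 1 after word 3 within 60 bp, 3 had 13 bp, coh-3 and coh-4 included. The commonest spacing of that pair was 10 bp, at 29 summits. At smc-3 word 3 began 12 bp after word 4, which was the commonest spacing among the 103 series summits with this pair within 60 bp (23 of them), while 16 had 15 bp.

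Identical runs shared by 3 pairs of the strongest windows are given because they recur elsewhere in the genome. Each is read in the direction of the first gene named.
coh-3 and coh-4: tgtgcgcctttaaagaa
coh-3 and smc-3: atgtgtgcgcctttaaa
rec-8 and scc-1: cgcggtaagaccca
The first occurred 27 times in the genome and lay within 100 bp of a series summit in 4 cases, the copies at coh-3 and coh-4 included. The second occurred 52 times, with 7 near a summit, the copies at coh-3 and smc-3 included. The third occurred 7 times, of which the copies at rec-8 and scc-1 were the 2 near a summit. It holds none of the 4 words, but it does hold AGACCC, which was left out of the choice because it overlaps word 1. AGACCC was present in the 101 bases at 43.7% of the 325 strongest summits, against 1.23% of windows centred 300 bp away. Among letters listed from knowledge of cell cycle promoters, TTTCGCGC, TTTCCCGC and TTTGGCGC (sites like those of E2F), pqn-85 alone had a match at its strongest summit, TTTCGCGC, which 4.71% of all series summits and 0.916% of promoters hold. Of the commoner letters listed, TTTGAA was held by 44.3% of summits and 49.6% of promoters, TTCGAA by 16.7% and 12.7%, and GAGAGA by 17.6% and 15.7%. A match is a description of the letters, and no factor was assigned to any.

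Other genes of chromosome cohesion and structure were counted in the same windows of the series list, against the same 14.8% of all genes. Of 8 cohesion factors 6 had a summit. The strongest were sgo-1, a shugoshin (signal 4357, rank 6), ify-1, the securin (1618, rank 138), and evl-14, the PDS5 protein (1365, rank 193). Without one were mau-2, the partner of pqn-85 in the loader, and chl-1. Both SMC5/6 genes had one, smc-6 at 1722 and smc-5 at 268. All 4 meiotic axis genes did, with him-3 at 334, htp-2 at 269.6 and htp-1 at 256 the strongest, far below the meiotic kleisins that build the same axis. The chromosomal passenger genes had one in 4 of 4 cases, led by csc-1 (368), icp-1 (308) and bir-1 (107), though bir-1 and air-2 had none in the list of replicate 1. Condensin, the other large SMC complex, had the lowest share at 4 of 9, with dpy-26 (342), hcp-6 (329.8) and smc-4 (297) the strongest. Their peaks ranked between smc-3 and pqn-85. Among the genes named from these lists with a summit, sgo-1, smc-5, dpy-26 and bir-1 had no neighbour recorded as sharing their strongest one. The strongest summits of the others lay in a neighbour's window too and cannot be given to 1 gene. No control library was analysed here, so the part of open chromatin or of strong transcription in any of these peaks was not tested.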

How the data were processed

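Peak lists of 1 ChIP-seq experiment with 2 biological replicates were analysed. Per the labels, chromatin was sonicated to 200 to 800 bp and build ce11 was used. Deposited notes give each replicate's alignments as the source of its list, and both sets as that of the series and conservative lists, plus inputs of unstated content. Aligner and peak caller: not given in the sources used here. For each peak the authors deposited a signal, a score that ran from 830 upwards in thresholded lists, and a −log10 q. Signal was ranked within a list, and read depth is unknown. The deposited score and −log10 q were not tested.

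Gene models were those of Ensembl release 115 (WBcel235), and bases were read from RefSeq. No peak end exceeded its chromosome. Summits were assigned by position, replicate peaks matched by an overlap of 1 bp, and coordinates are 1-based. The genes named are the 10 members, genes that share their summits and the 3 strongest of each other list. Named besides, after their values were seen, were mau-2, chl-1 and air-2 from those lists, and mzt-1, enu-3.3 and chat-1 beyond the windows. Members, lists and words were chosen with earlier results of these data known, and no p-value is given. The assignment was tested on simulated data. Tools were Biopython 1.88, matplotlib 3.10.9, numpy 2.4.6 and pandas 2.3.3 under Python 3.11.15.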

Additional observations from a re-analysis of the deposited data

How the results depend on the processing

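The count of 8 cohesin genes with a summit was also 8 in the conservative list, in each replicate's own list, used when the other is left out (8 and 8), with 500 bp upstream and with promoter windows. It was 7 in the stronger 50% of the list, without scc-3, and 9 with 2000 bp upstream or with any overlap of the peak, both through him-1. It moved to 5 when a summit counted for its nearest 5′ end alone. The median place of the strongest peaks, 4.88% from the top of the series list, was 5.01% in the conservative list and 6.35% to 6.49% with 1 replicate left out. Each of these lay more than 1 SD of the replicate values from 4.88%, though the conservative list moved it by less than the replicates differed, and the lists also differ in length. Of 24 such places for single genes, 12 moved by more than that SD. The ratio of the lowest meiotic kleisin to scc-1 was 1.73 to 1.92 with 1 replicate left out and 1.82 otherwise, and gave no value under the nearest 5′ end, where scc-1 has no summit. Replicate peaks overlapped at 8 genes by 1 bp, at 7 by 50% of both peaks, and at 10 in the unthresholded lists. By 1 bp, 1940 of all 2219 peaks of replicate 1 overlapped one of replicate 2. The share of all peaks was not counted for the other settings. Genes with at least 2 words numbered 7 within 100 bp (26.2% of all summits) and 4 within 50 bp (21.2%), an alternative chosen after seeing the data. No paired analysis was possible because there was 1 group. Depth is unknown, so a gene without a peak is not shown to lack binding.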
